A study of Mus musculus with 120 samples.

Results

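Gene deserts held 1975 of the 8961 methylation windows that the authors called between App-NLGF and wild-type mice. A window of 1 kb was taken as lying in a desert when it was on chromosomes 1 to 19, overlapped no RefSeq gene of any biotype and lay more than 50 kb from the nearest protein-coding gene body. The rule used position alone and no methylation value. Of all called windows 8381 were on chromosomes 1 to 19, of which 6406 lay outside deserts and serve for comparison. DNA methylation had been measured by whole-genome bisulfite sequencing, which reads unmethylated cytosine as thymine, in hippocampus and blood at postnatal weeks 3, 8 and 24. In App-NLGF mice the endogenous App gene has been edited to a human amyloid-beta stretch bearing the Swedish, Iberian and Arctic mutations, and wild-type mice lack these edits. The 120 libraries form 12 groups of 10, each of 1 tissue, genotype and week with 5 males and 5 females, and the labels used here give no other allele, agent or strain. For each tissue and week the authors compared 10 App-NLGF libraries with 10 wild-type libraries with sex as a covariate, which gave 6 lists of windows. The question behind these lists is how early, and in which tissue, methylation differs between the genotypes.

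Gene deserts are long stretches of genome without coding genes. They are poor in CpG dinucleotides, the sites at which mammalian DNA is chiefly methylated, and rich in old repeats. Much of their sequence is fully methylated in most cells, some replicates late and loses methylation in dividing cells, and some holds distant enhancers of developmental genes such as Shh. A called window in a desert therefore marks a place, not a gene, and the coding genes named below are landmarks whose link to the window was not measured.

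Every printed difference is the authors' methylation difference in percentage points, read as App-NLGF minus wild type from the name of the comparison, and the opposite order would turn every direction around. Values per library, methylation levels and coverage were not analysed here. No spread between animals can be given, and the depth behind each difference is unknown. Both tissues are mixtures of cells, so a change in the methylation of a cell type and a change in that type's share cannot be told apart. Positions are on mm10.

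For 3 member windows, RefSeq's promoter table (GRCm38.p6, the same coordinates) holds part of the sequence. Each of these windows overlaps the promoter stretch of a long noncoding RNA gene but not the gene itself. The shared stretches are shown 5′ to 3′ on the strand of that gene, with CpG dinucleotides in capitals. They are the member sequence at hand and show the methylatable sites within it. The first stretch, chr11:71649769-71650000 on the plus strand, lies in a window listed at 14.1 points in hippocampus at week 24 in the authors' deposited table. The second, chr15:62668934-62669000 on the plus strand, lies 678 kb from Myc, the growth-regulating transcription factor, in a window listed at 17.8 points in the same tissue and week in the authors' deposited table. The third, chr17:9776001-9776116 on the minus strand, lies in a window listed at -15.7 points in blood at week 8 in the authors' deposited table.
Gm33964: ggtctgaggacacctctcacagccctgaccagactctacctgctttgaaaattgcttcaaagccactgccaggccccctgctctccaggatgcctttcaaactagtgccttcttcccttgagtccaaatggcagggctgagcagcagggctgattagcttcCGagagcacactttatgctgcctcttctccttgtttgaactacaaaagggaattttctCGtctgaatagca
Gm41333: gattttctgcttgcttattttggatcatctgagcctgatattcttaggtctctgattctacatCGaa
4930452A19Rik: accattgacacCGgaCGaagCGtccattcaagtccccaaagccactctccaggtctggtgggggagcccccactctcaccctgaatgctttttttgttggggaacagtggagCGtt
The Gm33964 stretch holds 2 CpG in 232 bases, the Gm41333 stretch 1 in 67 bases and the 4930452A19Rik stretch 4 in 116 bases. The median promoter of 300 bases in that table holds 7. Lengths differ: per base, the 4930452A19Rik stretch holds more CpG than that median, and the Gm33964 and Gm41333 stretches hold fewer. Stretches near the starts of noncoding genes need not be typical of deserts.

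Deserts held a share of called windows near their share of the grid in 4 lists, a larger one in blood at week 24 and a smaller one in blood at week 8. Of the 2441585 windows of 1 kb between the first and last gene or called window of each chromosome, 748951 (30.7%) met the desert rule. In hippocampus, deserts held 294 of 960 called windows on chromosomes 1 to 19 at week 3 (30.6%, 95% Clopper-Pearson interval 27.7 to 33.6), 229 of 689 at week 8 (33.2%, 29.7 to 36.9) and 262 of 880 at week 24 (29.8%, 26.8 to 32.9). Blood had 358 of 1078 at week 3 (33.2%, 30.4 to 36.1), 652 of 4277 at week 8 (15.2%, 14.2 to 16.4) and 180 of 497 at week 24 (36.2%, 32.0 to 40.6). These intervals describe lists of windows and not animals. Among all windows the authors tested, 0.0440% were called in hippocampus at week 3, 0.0318% at week 8 and 0.0408% at week 24, and 0.0495%, 0.196% and 0.0244% in blood at the same weeks. As a share of the desert grid, members made up 0.0393%, 0.0306% and 0.0350% in hippocampus and 0.0478%, 0.0871% and 0.0240% in blood. The grid counts windows that may not have been covered by reads, so the members' shares have a larger denominator than the background. The background also takes in windows off chromosomes 1 to 19, which the members' shares leave out.

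Relative to the number of grid windows, called windows were 0.998 times as frequent in deserts as elsewhere in hippocampus at week 3, 1.13 times at week 8 and 0.958 times at week 24. The ratio was 1.12 in blood at week 3 and 1.28 at week 24. Blood at week 8 stood apart with a ratio of 0.406, and the ratio differed by direction there. Lower windows were 0.311 times as frequent in deserts as elsewhere, while higher windows were 1.57 times as frequent. That list also held 1872 windows at the ends of coding genes (a start or end at most 1 kb away), and 11 of these (0.588%) were higher. Without the windows at gene ends the ratio there was 0.787, with 0.655 for lower and 1.53 for higher windows, and in the other 5 lists it lay between 0.957 and 1.27. No test of these densities was made, since which grid windows were tested is not known.

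Most desert windows were lower in App-NLGF in hippocampus at week 3 and in blood at week 8, and most were higher in hippocampus at week 24 and in blood at weeks 3 and 24. At week 3 in hippocampus 97 members were higher and 197 lower, so that 33.0% were higher (27.6 to 38.7), where 0.0130% of all tested windows were called higher and 0.0311% lower. At week 8 the members were evenly divided, 115 higher and 114 lower (50.2%, 43.6 to 56.9), beside 0.0174% and 0.0145% of all tested windows. At week 24 in hippocampus 151 were higher and 111 lower (57.6%, 51.4 to 63.7), beside 0.0239% and 0.0169%. In blood at week 3, 241 members were higher and 117 lower (67.3%, 62.2 to 72.2), beside 0.0313% and 0.0182% of all tested windows. In blood at week 8, 191 were higher and 461 lower (29.3%, 25.8 to 33.0), beside 0.0218% and 0.175%. In blood at week 24, 143 were higher and 37 lower (79.4%, 72.8 to 85.1), beside 0.0202% and 0.00426%. Over all lists together 938 members were higher and 1037 lower.

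Blood at week 8 was the list in which the direction of desert windows differed from that of the other windows. There 29.3% of desert windows and 7.59% of the 3625 others were higher, a difference of 21.7 points (Fisher's exact test, two-sided, adjusted p = 9.14e-47 over the 6 lists). Without the windows at gene ends the others were 15.1% higher, and the difference of 14.2 points passed the same test (adjusted p = 1.37e-13). Against the 452 windows between genes but within 50 kb of a coding gene, of which 20.4% were higher, the difference was 8.94 points (adjusted p = 0.00579, a comparison added after the data were seen). Among windows of at least 15 points in blood at week 8, 33.0% of 206 desert windows and 22.6% of 296 others were higher, and this did not pass (adjusted p = 0.0642). In the other lists the difference in direction did not pass Fisher's exact test. The differences were 5.52 points in hippocampus at week 3, -7.39 at week 8 (adjusted p = 0.135 for both) and 0.514 at week 24 (adjusted p = 0.941). In blood they were 5.93 points at week 3 (adjusted p = 0.135) and -2.26 points at week 24 (adjusted p = 0.665). With deserts defined by distance from coding genes alone, so that windows in noncoding genes also counted, hippocampus at week 8 (-9.04 points) and blood at week 3 (7.20 points) passed Fisher's exact test (adjusted p = 0.0454 for both). Neighbouring windows are not independent, and these tests describe the lists and not the animals.

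**Figure D1:**
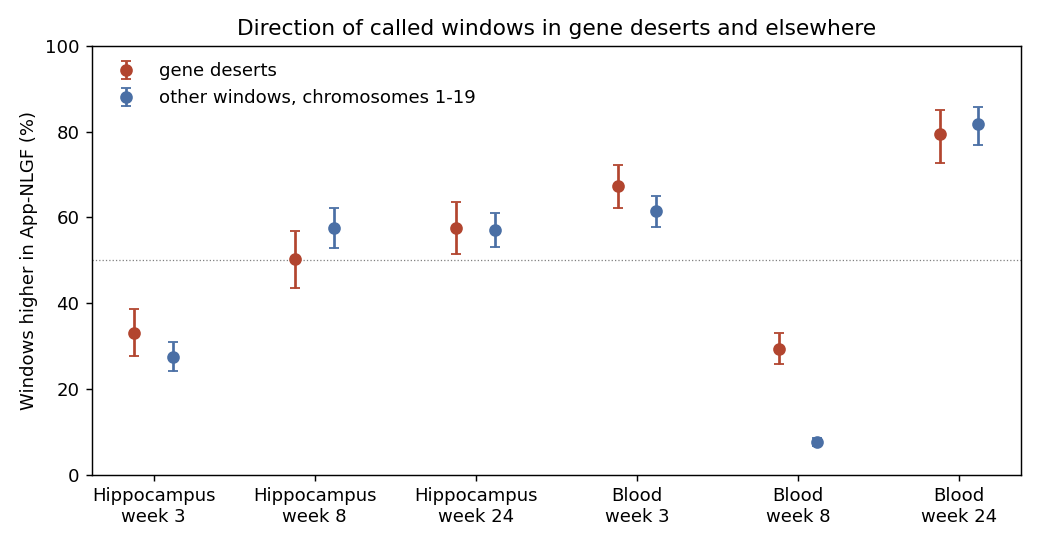
Share of called windows that were higher in App-NLGF, in percent, for windows in gene deserts (red) and all other windows on chromosomes 1 to 19 (blue) in each list, with 95% Clopper-Pearson intervals and a dotted line at an equal split. The intervals overlap in 5 lists, and in blood at week 8 the desert share of 29.3% lies above the 7.59% of the other windows.

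Within deserts, members were spread over distance from coding genes much as the desert itself is. The median distance to the nearest coding gene was 254 kb for members, with quartiles of 119 and 533 kb, and 251 kb for all desert grid windows, with quartiles of 118 and 536 kb. Members lay in gaps between coding genes with a median length of 1192 kb, beside 1102 kb for the desert grid. Of all members 379 lay at 50 to 100 kb (19.2%, beside 19.8% of the desert grid), 603 at 100 to 250 kb (30.5%, beside 30.1%), 461 at 250 to 500 kb (23.3%, beside 23.0%), 358 at 500 to 1000 kb (18.1%, beside 17.6%) and 174 beyond 1000 kb (8.81%, beside 9.53%). The gene of any biotype nearest to a member was most often a pseudogene (831 members) or a long noncoding RNA gene (738 members). The median distance to it was 51.3 kb for members and 52.1 kb for the desert grid.

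The 50 kb limit divides windows that lie close together on this scale. In the authors' deposited table the members nearest to it were -11.2 points near Suclg2 in blood at week 8, 18.4 points near Ptgs2 in hippocampus at week 24 and 13.9 points near Foxa2 in blood at week 8, all just over 50 kb away. Just inside 50 kb, and so not members, the authors' deposited table gives -15.2 points near Wwp1, -14.6 points near Gm4847 and -15.0 points near Fam110b.

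In blood at week 8 the share of higher windows was larger among members far from coding genes. It was 22.2% of 126 members at 50 to 100 kb, 21.9% of 187 at 100 to 250 kb, 35.3% of 150 at 250 to 500 kb, 34.7% of 124 at 500 to 1000 kb and 40% of 65 beyond 1000 kb. Beyond 250 kb 122 of 339 members were higher (36.0%), and 69 of 313 nearer ones (22.0%), a difference of 13.9 points. With the division at 100 kb it was 8.77 points. In the other 5 lists the division at 250 kb gave differences between -3.87 and 8.63 points. As this division was chosen after the shares were seen, they stand as descriptions with no test.

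**Figure D2:**
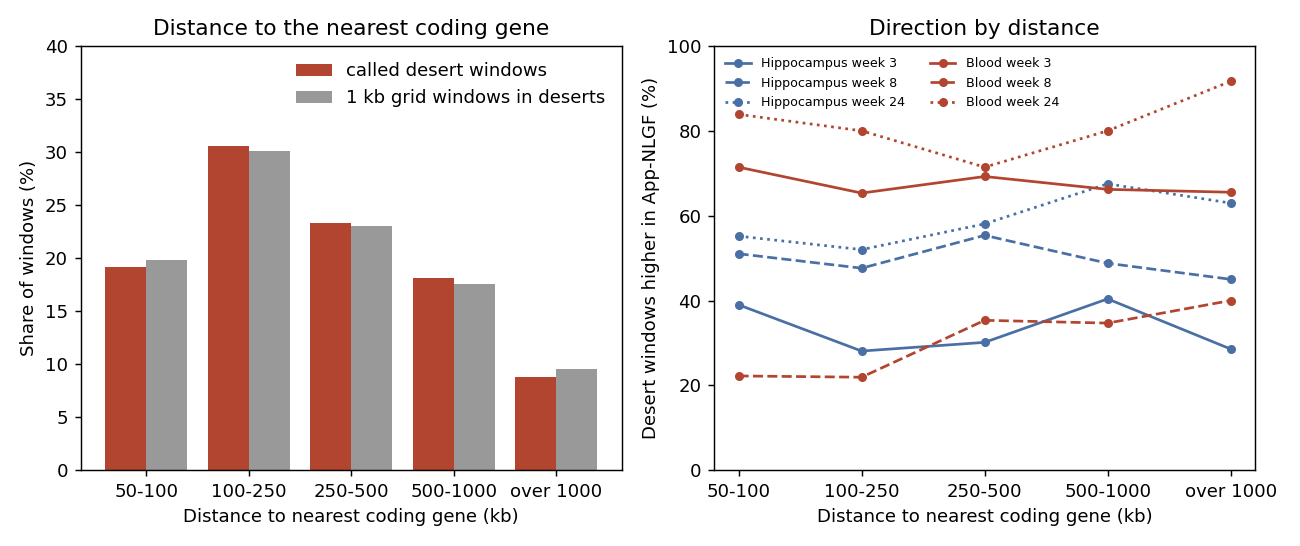
Left, share in percent of called desert windows of all lists (red bars) and of all 1 kb desert grid windows (grey bars) by distance in kb to the nearest coding gene. Right, share of desert windows higher in App-NLGF in the same distance classes, 1 line per list, blood in red and hippocampus in blue; in blood at week 8 the share goes from 22.2% in the nearest class to 40% in the farthest.

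The median difference was larger in desert windows than in all other windows of each list as 1 group, although both passed the same threshold of 10 points. The median absolute difference of desert windows was 14.7 points in hippocampus at week 3 (quartiles 12.31 and 18.01), beside 13.5 points elsewhere. At week 8 it was 14.4 points, beside 13.0, and at week 24 it was 14.3 points (quartiles 12.2 and 17.7), beside 13.6. In blood it was 16.1 points at week 3 (quartiles 13.3 and 20.2), beside 14.1, then 13.2 points at week 8 (quartiles 11.4 and 16.1), beside 11.4, and 15.2 points at week 24 (quartiles 12.3 and 18.1), beside 13.1. Desert medians were thus higher in 6 of 6 lists, by less than the distance between the quartiles in each. Of desert windows 307 (15.5%) reached 20 points, as did 357 (5.57%) of the others, but 3625 of those 6406 other windows came from blood at week 8, where 1.74% reached it. Without that list 248 of 1323 desert windows (18.7%) and 294 of 2781 others (10.6%) reached 20 points. Blood at week 3 had the largest share of desert windows at 20 points or more, 98 of 358 (27.4%), beside 13.1% of its other windows. Other classes came close to deserts or passed them in places. Windows in noncoding genes only had medians of 14.2 points in hippocampus at week 8 and 15.8 points in blood at week 3. In hippocampus at week 24, 16.6% of windows between genes within 50 kb of a coding gene reached 20 points, and 14.9% of desert windows. No test of size was made.

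Adjusted p was higher in desert windows than in the others at the median in 5 lists and lower in blood at week 24. The median adjusted p of desert windows was 0.0603, 0.0733 and 0.0591 in hippocampus at weeks 3, 8 and 24, beside 0.0582, 0.0677 and 0.0552 elsewhere. In blood it was 0.0574, 0.0523 and 0.0641, beside 0.0477, 0.0114 and 0.0652. An adjusted p under 0.001 was reached by 1, 2 and 2 desert windows in hippocampus and by 2, 12 and 0 in blood. Among windows with an adjusted p of 0.05 to 0.1 alone, the median absolute difference was 15.4 points in deserts and 13.8 elsewhere in blood at week 3, and 13.1 against 11.6 in blood at week 8. The number of reads and CpG sites behind each window was not analysed here.

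**Figure D3:**
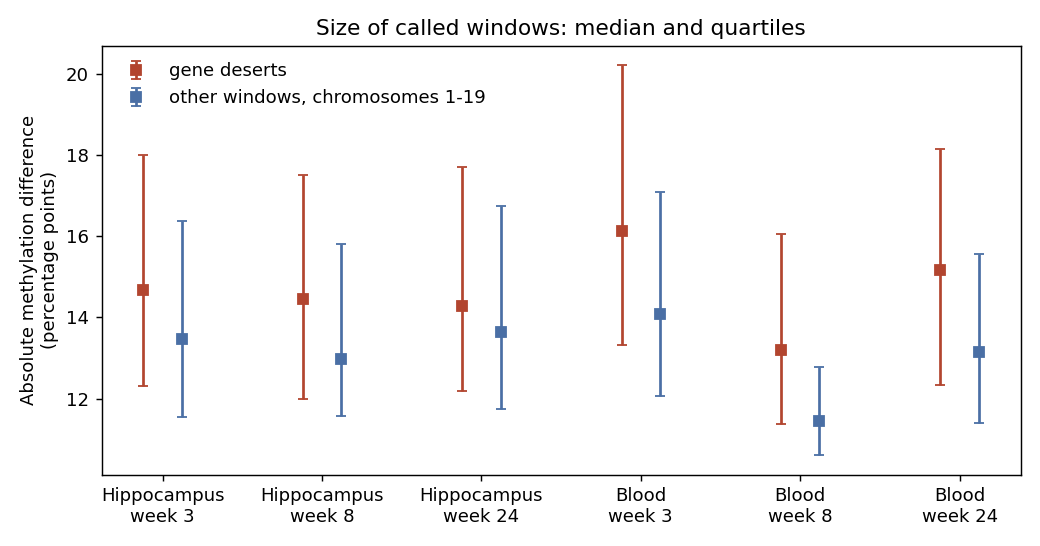
Median absolute methylation difference in percentage points, with bars from the first to the third quartile, for called windows in gene deserts (red) and for other windows on chromosomes 1 to 19 (blue) in each list. The desert median is the higher in all 6 lists, with overlapping quartile ranges.

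In hippocampus at week 3 the largest decrease and the largest increase were of similar size. The largest decrease in the authors' deposited table was -35.7 points at chr1:101503001-101504000, 1012 kb beyond Cntnap5b, which encodes a contactin-associated adhesion protein, with an adjusted p of 0.00103. Other large decreases, per the authors' deposited table, came to -31.3 points near the predicted gene Gm52257 and -30.5 points at 938 kb from Man1a, which encodes a mannosidase of glycoprotein processing. A window 554 kb from Gm826, one of those with the smallest adjusted p, was lower, at -14.8 points, and the authors' deposited table lists it with adjusted p = 0.00183. Increases, per the authors' deposited table, were led by 34.8 points at chr7:76167001-76168000, 61.6 kb from Agbl1, which encodes a carboxypeptidase that trims glutamate from tubulin. They went on with 28.2 points near Serpinb8, a serine protease inhibitor gene, and 25.3 points near Manea, a mannosidase gene, in the authors' deposited table. The member farthest from a coding gene at this age lay 1863 kb from Cdh20, at -13.2 points in the authors' deposited table.

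At week 8 in hippocampus the strongest windows went both ways. The largest increase in the authors' deposited table was 37.6 points at chr12:22798001-22799000, 52.3 kb from the predicted gene Gm38538. It was followed by 31.7 points at 405 kb from Fam110b and by 31.0 points at chr5:28809001-28810000, 342 kb from Shh, in the authors' deposited table. Shh encodes the secreted morphogen Sonic hedgehog. Decreases, per the authors' deposited table, came to -29.3 points near Fat3, an atypical cadherin gene, -29.0 points at 1005 kb from Slitrk1 and -25.6 points at 279 kb from Slitrk6, both of which encode synaptic adhesion proteins. The lowest adjusted p per the authors' deposited table was 6.75e-06 at chr11:27706001-27707000, 679 kb from Ccdc85a, with 19.8 points. After it came 17.1 points near Speer2 (adjusted p = 0.000646) and -22.5 points at 140 kb from Rasa1, which encodes a Ras-inactivating protein, in the authors' deposited table. The most remote member was 2013 kb from Pcdh17, a protocadherin gene, at 15.1 points in the authors' deposited table.

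At week 24 in hippocampus increases and decreases reached similar sizes. Increases, per the authors' deposited table, came to 30.0 points at chr2:53817001-53818000 near Gm38481, 29.1 points at 956 kb from Pom121l12 and 28.5 points at 51.1 kb from Herpud2, the last with an adjusted p of 0.00246. The largest decrease in the authors' deposited table was -31.3 points at chr13:38792001-38793000, 133 kb from Eef1e1, which encodes a component of the aminoacyl-tRNA synthetase complex. Next were -29.7 points at 1259 kb from Got2, a mitochondrial aspartate aminotransferase gene, and -27.6 points at 624 kb from Sema6d, a semaphorin gene of axon guidance, in the authors' deposited table. The lowest adjusted p per the authors' deposited table was 0.000487 at chr10:48210001-48211000, 883 kb from the kainate receptor gene Grik2, with 19.6 points. Small adjusted p also marked 22.0 points near Mgat4c, a glycosyltransferase gene, and -18.6 points near Stxbp6, a gene of SNARE regulation, in the authors' deposited table. A window 2268 kb from Pcdh20 was the farthest member of all lists, and the authors' deposited table gives it -20.8 points.

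The largest difference among all members was in blood at week 3. It was 62.5 points at chr3:46992001-46993000, 544 kb from Pabpc4l, a poly(A)-binding protein gene, and the authors' deposited table lists it with adjusted p = 0.0975, close to the limit of 0.1. The next increases, per the authors' deposited table, came to 37.9 points at 134 kb from the peroxisome gene Pex2 and 34.2 points at 1425 kb from the cadherin gene Cdh8. Decreases, per the authors' deposited table, came to -35.2 points at 312 kb from the potassium channel gene Kcna4 and -29.3 points near Stxbp6. Between them stood -31.7 points at chr2:109550001-109551000, 124 kb from Bdnf, which encodes brain-derived neurotrophic factor, and the authors' deposited table lists it with adjusted p = 0.00110. A second window near Bdnf, 165 kb from the gene, had 13.6 points in the authors' deposited table, so this pair gives no single direction. The authors' deposited table has its lowest adjusted p of this list at 598 kb from Jrkl (14.9 points, 0.000645), near Dynlrb2, a dynein light chain gene (18.7 points, 0.000898), and near Fscb (19.6 points, 0.00101). The most remote member lay 1734 kb from Olfm4 at 11.9 points in the authors' deposited table.

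Blood at week 8 had the most desert windows and the largest decrease. The authors' deposited table gives -40.4 points at chr2:84208001-84209000, 122 kb from Calcrl, which encodes the receptor of calcitonin gene-related peptide and adrenomedullin, with an adjusted p of 0.0122. Other decreases, per the authors' deposited table, came to -35.8 points near Dpp10, a potassium channel partner gene, and -33.1 points near Cdh11. A pair of the 3 largest increases lay in the same desert beyond Ptprd, a receptor phosphatase gene of synapse formation, with 35.5 points at chr4:79238001-79239000 and 26.4 points at chr4:79325001-79326000 in the authors' deposited table. The other was 26.8 points at 1793 kb from Dsel in the authors' deposited table. The lowest adjusted p in this list all belonged to lower windows. These were -16.7 points near Speer2 (1.48e-05), -10.7 points at 90.2 kb from Dio3, an imprinted thyroid hormone deiodinase gene (5.72e-05), and -21.0 points near 1700015G11Rik (6.87e-05), in the authors' deposited table. The most remote member, 2033 kb from Olfm4, had 25.6 points in the authors' deposited table.

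At week 24 in blood higher windows prevailed, and the 3 smallest adjusted p belonged to increases. In the authors' deposited table these were 16.5 points near Hif1an, which encodes the asparagine hydroxylase that restrains hypoxia-inducible factor (0.00538), 24.7 points near the neuropeptide gene Adcyap1 (0.00635) and 15.0 points near the activin subunit gene Inhbb (0.00667). The largest increases, per the authors' deposited table, came to 30.3 points at 377 kb from Utrn, the gene of utrophin, 29.2 points near Cntnap4 and 28.7 points near Pcdh9. The authors' deposited table gives -34.8 points at chr3:40214001-40215000 near the ciliary gene Intu as the largest decrease. It also gives -26.1 points near Pum3 and -25.0 points near Rab28. The most remote member lay 2093 kb beyond Cntnap5b at 14.1 points in the authors' deposited table.

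**Figure D4:**
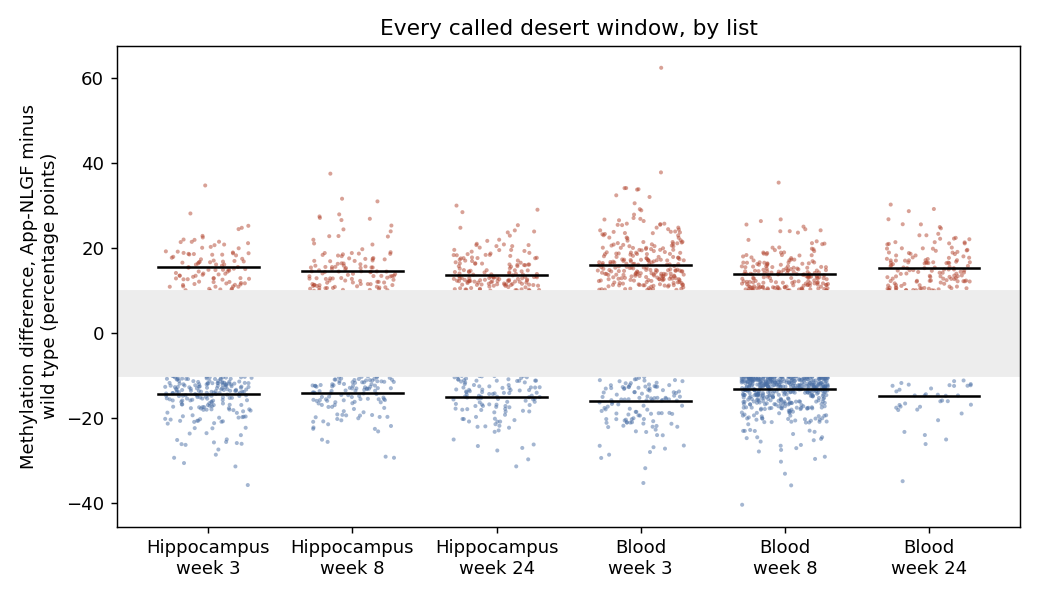
Methylation difference in percentage points, App-NLGF minus wild type, of every called desert window (1 point each, red higher and blue lower) in the 6 lists, with black lines at the medians of the higher and lower windows and a grey band for the range of -10 to 10 points that the lists leave out. The point at 62.5 in blood at week 3 stands alone, and lower windows are most numerous in blood at week 8.

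Members were scattered over the deserts. Of 2370 gaps between coding genes that hold desert grid windows, 790 had a member, 399 had 2 or more and 299 had members of both directions. Members of more than 1 list fell in 357 gaps, and members of all 6 lists in 10. The longest gap with a member, 4.54 Mb between Pcdh20 and Pcdh9 on chromosome 14, held 12, of which 4 were higher. The gap between Celf4 and Pik3c3 on chromosome 18 (4.51 Mb) also held 12, with 6 higher, and that between Olfm4 and Pcdh17 on chromosome 14 (4.42 Mb) held 12, with 6 higher. Between Cntnap5b and Cdh20 on chromosome 1 (4.28 Mb) there were 11, with 3 higher, and between Tenm3 and Aga on chromosome 8 (3.99 Mb) 11, with 5 higher. None of these 5 gaps had members of a single direction. The gap with the most members, 16 of them with 7 higher, lay between Slc39a10 and Tmeff2 on chromosome 1 and was named after its values were seen. Counts depend on gap length. Per 1000000 desert grid windows the 5 longest gaps had 2889 to 3795 members, beside 2637 over all deserts. The gap between Slc39a10 and Tmeff2 had 4388 by this measure. A shorter gap, between Ripk2 and Mmp16 on chromosome 4, held 14 members, with 8 higher, at 9964 per 1000000. It too was named after its values were seen, and no density was tested.

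Runs of neighbouring desert windows were few, as were those of other windows outside blood at week 8. Merging called windows within 10 kb left 642 of 652 desert windows and 3338 of 3625 others in blood at week 8. In hippocampus at week 24 it left 259 of 262 desert windows and 618 of 618 others. How many runs the density of members alone would give was not worked out. In a single list 14 runs of 2 or more members lay within 10 kb of each other, which took in 29 members (1.47%), and 10 of the 14 runs had 1 direction. Blood at week 8 had 8 of the runs, and hippocampus at week 8 and blood at week 24 had 0. The longest run had 3 windows, in blood at week 8 on chromosome 8 between Slc10a2 and the ephrin gene Efnb2, and was mixed, at -11.99, 16.46 and -10.72 points in the authors' deposited table. A run of 2 higher windows lay 634 kb beyond Ncam2, a neural adhesion gene, at 19.6 and 13.5 points in blood at week 8 in the authors' deposited table. Near Arrdc4 a run of 2 higher windows in blood at week 3 had 17.5 and 19.6 points, and near Mucl2 a run of 2 lower windows had -19.4 and -18.5 points in the authors' deposited table. A run near Nr2f2, a transcription factor gene, had 11.6 and -27.0 points in hippocampus at week 24 in the authors' deposited table, so its neighbours differed in sign.

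Most desert windows were in 1 list only, while each list called a small share of the desert grid. Of 1970 distinct windows 5 were in 2 lists, 2 with the same and 3 with opposite direction, and no pair of lists shared more than 2. Those 2 were 0.763% of the members in hippocampus at week 24, beside 0.0871% of the desert grid called in blood at week 8. They were 0.307% of the members in blood at week 8, beside 0.0350% of the desert grid called in hippocampus at week 24. No test of sharing was made. The window at chr15:15361001-15362000, 1367 kb from Cdh9, had 24.8 points in hippocampus at week 24 and 25.5 points in blood at week 3 in the authors' deposited table. The other concordant window, chr16:86113001-86114000, had -14.9 points in hippocampus at week 24 and -16.0 points in blood at week 8 in the authors' deposited table. It lies 212 kb from Adamts5, an aggrecan-cleaving protease gene, and 938 kb from App. Counting starts up to 10 kb apart, members of different lists formed 52 pairs, 26 of the same and 26 of opposite direction. Pairs within a tissue were 8 alike and 11 opposite, and pairs between tissues 18 alike and 15 opposite.

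Within 1 Mb of App there were 4 members, all lower, 2 in hippocampus at week 24 and 2 in blood at week 8. Of all desert windows in these lists, 42.4% and 70.7% were lower. The 4 members are 3 places, since the window near Adamts5 is in both lists. Counted once per list, they correspond to 3493 members per 1000000 desert grid windows, beside 2637 over all deserts. The nearest member, 90.7 kb beyond App, had -11.6 points in blood at week 8 in the authors' deposited table. Within 10 Mb of App 34 members gave 3814 per 1000000 desert grid windows, with 17 higher and 17 lower, and the rest of chromosome 16 gave 2257 per 1000000 from 57 members. Of those 34 members 17 were from blood at week 8, at 1907 per 1000000, beside 966 for that list on all of chromosome 16. In hippocampus the density within 10 Mb was 561 at week 3, 224 at week 8 and 449 at week 24 (5, 2 and 4 members). On all of chromosome 16 these lists had 556, 293 and 293. In blood it was 224 at week 3 and 449 at week 24 (2 and 4 members), beside 263 and 293. The values of single lists for all of chromosome 16 include the windows near App. No test was made.

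Over whole chromosomes the density of members of all lists together varied little. It was 2637 per 1000000 desert grid windows on chromosomes 1 to 19 together. The lowest was 2312 on chromosome 18 (71 members) and the highest 3166 on chromosome 11 (95 members). Single lists varied more, on small counts. Blood at week 24 ran from 81.2 on chromosome 15 (3 members) to 447 on chromosome 9 (13 members). Hippocampus at week 24 ran from 189 on chromosome 17 (5 members) to 567 on chromosome 11 (17 members). Chromosome 1 held the most members, 183, with 9.27% of them and 9.16% of the desert grid. Deserts made up 40.1% of chromosome 3 and 19.8% of chromosome 19, and these held 179 and 28 members.

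**Figure D5:**
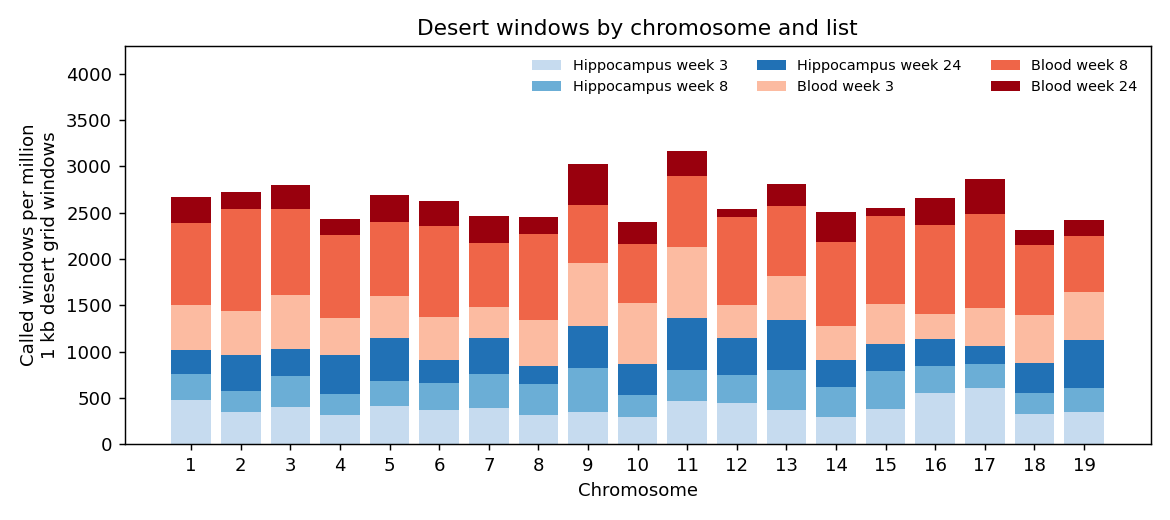
Called desert windows per 1000000 1 kb desert grid windows on each chromosome, stacked by list (hippocampus in blues, blood in reds, darker with age). Chromosome totals run from 2312 on chromosome 18 to 3166 on chromosome 11.

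The coding genes nearest to the members, 981 in number, were sorted into gene families, and each family's share of members is given beside its share of the desert grid. Axon guidance and synaptic adhesion genes were nearest to 183 members (9.27%, beside 8.09% of the desert grid), of which 97 were higher. Developmental transcription factors were nearest to 95 (4.81%, beside 4.43%), with 52 higher, and cadherins and protocadherins to 80 (4.05%, beside 4.93%), with 42 higher. Voltage-gated ion channels flanked 30 members (1.52%, beside 1.30%), glutamate and GABA receptors 27 (1.37%, beside 1.16%), zinc finger genes named Zfp and their relatives 23 (1.16%, beside 1.08%) and chemosensory receptors 7 (0.354%, beside 0.852%). These counts describe proximity, and no enrichment was tested.

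Direction near a family is read against all desert windows of the list, of which 33.0%, 50.2% and 57.6% were higher in hippocampus at weeks 3, 8 and 24, and 67.3%, 29.3% and 79.4% in blood. Near axon guidance and adhesion genes the shares were 40.9% of 22, 48% of 25 and 62.5% of 24 in hippocampus, and 58.3% of 36, 43.9% of 57 and 78.9% of 19 in blood. Near developmental transcription factors they were 16.7% of 12, 69.2% of 13 and 61.1% of 18 in hippocampus, and 73.3% of 15, 30.8% of 26 and 100% of 11 in blood. Cadherin and protocadherin genes had 28.6% of 7, 41.7% of 12 and 50% of 10 in hippocampus, and 85.7% of 14, 41.9% of 31 and 83.3% of 6 in blood. Near Zfp genes 0 of 6, 2 of 3 and 1 of 1 were higher in hippocampus, and 1 of 3 and 0 of 10 in blood at weeks 3 and 8. None of these differences from the list was tested, and most counts are small.

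Some landmark genes, named after their values were seen, had windows of several lists around them. All 5 members nearest to Pou3f2, a neuronal POU factor gene, were lower, from -10.2 to -20 points in the authors' deposited table. All 4 members nearest to Sall1, a transcription factor gene with a role in microglia, were higher, from 10.1 to 14.8 points in the authors' deposited table. Near Grik2 6 of 7 members were higher, and near Cdh9 8 of 10. Signs were mixed near Ncam2 (8 higher, 4 lower), Cntnap5b (5 higher, 7 lower) and Slitrk6 (5 higher, 7 lower), with 12 members each. Beyond Slitrk6 3 neighbouring windows, 278 to 293 kb from the gene, were lower in 3 lists in the authors' deposited table, at -25.6 points in hippocampus at week 8, -14.7 points in blood at week 24 and -16.1 points in hippocampus at week 3. As 981 landmark genes were available, runs of 1 sign among a few windows are to be read as descriptions.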

How the data were processed

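The build was mm10, and methylKit, Bismark, Trim Galore and FastQC are named, without versions, per the submitters' processing notes. The authors' deposited table holds called windows of 1 kb with a p-value, an adjusted p-value and a methylation difference in percentage points. Every adjusted p-value in it is under 0.1 and every absolute difference at least 10 points. It gave 0 columns of single libraries, so depth is unknown. The number of windows tested was worked out from each window's p, adjusted p and rank, assuming Benjamini-Hochberg adjustment; 81.0% to 91.0% of ranks were whole within 0.02.

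Windows were placed against 47042 RefSeq genes (GRCm38.p6), 20665 of them coding, in Python 3.11.15. Distances run from window edge to gene edge. Shares carry 95% Clopper-Pearson intervals, and directions were compared by Fisher's exact test (SciPy 1.17.1) with Benjamini-Hochberg adjustment over 6 lists and calls at 0.05. Placement and recovery were tested on simulated data. Named windows are, per list, the 3 largest increases, decreases and smallest adjusted p and the most remote; also shared windows, runs and the 5 longest gaps. Members and lists were chosen with earlier results of these data known. Some windows that the rule names are not reported here.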

Additional observations from a re-analysis of the deposited data

Results flagged for a closer look

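The same desert window was called with opposite directions in 2 lists at 3 places, and the difference between the lists was not tested. At chr1:18348001-18349000, 82.9 kb from the defensin gene Defb41, the authors' deposited table gives -11.4 points in hippocampus at week 8 and 12.7 points at week 24. At chr14:85593001-85594000, 1055 kb from Pcdh17, it gives -12.2 points in blood at week 8 and 11.1 points at week 24 in the authors' deposited table. At chr16:79948001-79949000, 857 kb from the protease gene Tmprss15, the authors' deposited table gives -13.4 points in blood at week 8 and 11.6 points in hippocampus at week 24. Values per animal were not analysed here, so how many animals of each group moved is unknown.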

How the results depend on the processing

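No paired analysis was possible because the table holds no value per library. The 35 other shares of higher members stayed inside the interval of the main share, and 42 of 54 desert-against-other comparisons kept direction and call. With an adjusted p under 0.01 the share higher was 23.5%, 80% and 50% in hippocampus at weeks 3, 8 and 24 (17, 5 and 20 members), and 60.7% and 90% in blood at weeks 3 and 24 (28 and 10 members). The differences from other windows, none past the test in either setting, then reversed to -6.47, 11.6, -9.32, -0.397 and 10 points. Among windows of at least 15 points the share was 51.3% in hippocampus at week 24 and 33.0% in blood at week 8. The difference became -0.412 points in hippocampus at week 24 and -1.93 points in blood at week 3, and weakened to 10.4 points in blood at week 8. With deserts set by coding genes alone it passed at -9.04 points in hippocampus at week 8 and 7.20 points in blood at week 3 (adjusted p = 0.0454 for both). In hippocampus at week 24 it was -0.439 points without chromosome 16 and -6.37 points against nearby intergenic windows. Members beyond 100 kb in blood at week 8 differed by 8.77 points from nearer ones, against 13.9 points at 250 kb, a division chosen after seeing the data. The stricter thresholds leave fewer windows; other causes were not tested.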

Other observations

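On chromosome X, which the rule leaves out, 205 of 571 called windows met the same distances, 90 higher and 115 lower. The share of chromosome X that lies in deserts was not worked out. In blood at week 24 all 26 of them were higher, as were 468 of all 567 called windows of that list. In blood at week 8 17 were higher and 67 lower, beside 502 higher of 4526 in the whole list. In blood at week 3 15 were higher and 12 lower, beside 729 higher of 1153. Hippocampus had 6 higher and 13 lower at week 3, 8 higher and 15 lower at week 8, and 18 higher and 8 lower at week 24. In those whole lists 302 of 1024, 405 of 742 and 556 of 949 called windows were higher. The median absolute difference of the 205 windows was 16.6 points. The authors' deposited table gives 38.9 points near Ctag2 in hippocampus at week 24 as the largest increase and -36.4 points near Cnksr2, a synaptic scaffold gene, in blood at week 8 as the largest decrease.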
